A study of Mus musculus with 6 samples.

Results

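A set of 10 genes of antigen presentation was followed across the array table, chosen by name: B2m, H2-K1, H2-D1, Tap1, Tap2, Tapbp, Psmb8, Psmb9 and Nlrc5 of the major histocompatibility complex (MHC) class I pathway, and Fcgrt, which encodes the neonatal Fc receptor. All 10 were measured, among 19057 genes in all, by 20 of the 45281 probes, and each gene was represented by its brightest probe by mean over the 6 arrays. The genes were chosen with the contrast between the groups already known, so their levels and differences are given as a description and no test of them is used as evidence. The samples were small intestinal organoids, epithelial structures grown from mouse crypts. The 3 control samples came from Villin-Cre mice and the 3 Snai1 knockout samples from mice of the genotype Villin-Cre, Snai1fl/fl, and both groups received tamoxifen at 0.5 µM in the 24 hours before harvest. The Villin promoter drives Cre in the intestinal epithelium. The labels give neither the age of the mice nor whether replicates came from separate animals, so the spread between replicates may be technical. The series title places the comparison in the study of Snai1, a zinc-finger transcriptional repressor, in lineage allocation and stem cell maintenance.

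Class I molecules show short peptides from the cell's own proteins to CD8 T cells. The peptides are cut by the proteasome, whose interferon-induced subunits are encoded by Psmb8 and Psmb9, pumped into the endoplasmic reticulum by the Tap1-Tap2 transporter, and loaded with the help of tapasin (Tapbp) onto a heavy chain, H2-K or H2-D, that is held together by the light chain beta-2-microglobulin (B2m). Nlrc5 is the transcriptional activator of this gene set. The neonatal Fc receptor has a class I-like heavy chain that also needs beta-2-microglobulin, but it binds IgG and albumin instead of peptide. It carries IgG across the gut of suckling rodents and protects IgG and albumin from degradation.

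The values are on a log scale taken as log2, run from 7.71 to 14.8 and have a median of 7.87, close to the lowest value. Values near the median may be compressed and differences of dim probes understated, which was not tested. A probe or gene is called bright here where its mean was above 8.27, the upper quartile. Over all probes, pairs of arrays had correlations between 0.994 and 0.997. Both Snai1 probes read between 7.82 and 7.96 on all 6 arrays, at the bottom of the scale, so they do not check the labels. Of 14 epithelial markers 11 were bright, among them Lyz1 (14.50 over all arrays), Krt8 (14.26), Krt20 (11.92) and Vil1 (11.78), while the probes of Epcam, Fabp1 and Fabp2 were dim at 8.12, 7.79 and 7.81. None of 11 measured leukocyte markers and none of 8 stromal and endothelial markers was bright. Ptprc, the pan-leukocyte marker, read 7.81, below the median of the table.

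The sequences before the transcript starts of the genes at the centre of the results are shown first, because class I genes are known for a shared promoter layout and because Snai1 binds an E-box. Each is the 250 bases before the annotated start, from the RefSeq table of build GRCm38.p6, which held such a stretch for 8 of the 10 genes, Tap2 and Nlrc5 being the others. H2-K1 had 2 annotated starts in the table, and the first listed is shown. The motifs searched on both strands were the Snail E-box CAGGTG, the interferon-stimulated response element GAAANNGAAA, a kappa B site GGGNNTTCCC, a STAT site TTCNNNGAA, the core TGACG of the cyclic AMP response element (CRE) and the CCAAT box, named by its letters. Capitals mark every match. B2m (chr2:122147437-122147686, plus strand) and Fcgrt (chr7:45103823-45104072, minus strand) are the genes whose groups did not overlap on their brightest probes. H2-K1 (chr17:34000348-34000597, minus strand) is a classical heavy chain, and Tap1 (chr17:34187306-34187555, plus strand) has an E-box.
B2m: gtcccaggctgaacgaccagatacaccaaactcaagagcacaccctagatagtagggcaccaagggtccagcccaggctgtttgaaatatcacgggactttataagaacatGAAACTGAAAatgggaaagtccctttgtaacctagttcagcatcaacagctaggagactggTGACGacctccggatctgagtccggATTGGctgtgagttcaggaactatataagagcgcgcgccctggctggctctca
Fcgrt: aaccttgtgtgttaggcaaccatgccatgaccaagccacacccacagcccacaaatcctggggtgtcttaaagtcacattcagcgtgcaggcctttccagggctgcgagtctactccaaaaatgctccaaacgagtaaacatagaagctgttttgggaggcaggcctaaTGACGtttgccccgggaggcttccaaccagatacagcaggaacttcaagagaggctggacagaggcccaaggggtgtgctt
H2-K1: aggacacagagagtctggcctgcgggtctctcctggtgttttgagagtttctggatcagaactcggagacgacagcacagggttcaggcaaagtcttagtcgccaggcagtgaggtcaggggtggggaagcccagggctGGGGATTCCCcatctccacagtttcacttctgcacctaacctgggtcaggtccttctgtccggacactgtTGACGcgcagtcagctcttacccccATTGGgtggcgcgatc
Tap1: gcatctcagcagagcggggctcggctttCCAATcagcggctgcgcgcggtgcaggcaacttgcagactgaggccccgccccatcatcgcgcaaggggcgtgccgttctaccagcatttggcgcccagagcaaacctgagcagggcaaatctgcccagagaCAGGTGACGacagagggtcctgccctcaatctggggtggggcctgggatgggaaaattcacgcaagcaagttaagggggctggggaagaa

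B2m had a response element match 139 bases before its start, a CRE core at 78 and a CCAAT box at 53. H2-K1 and H2-D1 had no match to the exact letters searched for the response element, and B2m had none to those for kappa B. Stretches that differ from the searched letters were not counted, so such sites may still be present. H2-K1 and H2-D1 had a kappa B match at 111 and 171 bases. Each was followed by a CRE core (41 and 101) and a CCAAT box (16 and 76), and H2-D1 had a further CCAAT box at 53. Fcgrt, a partner of B2m outside peptide presentation, had a single match, a CRE core at 81. Tap1 and Psmb9 are transcribed away from each other from starts 226 bases apart, so their stretches share 225 bases, and they hold the same E-box, which overlaps a CRE core. No E-box letters were found in the other 6 stretches. Tap1 also had a CCAAT box at 222, Psmb9 at 8 and Tapbp at 248 and 165. Of the 8 stretches, 6 held a CCAAT box and 6 a CRE core. Over all 32851 such stretches in the table, 17.2% held the E-box, 2.98% the response element, 1.53% the kappa B site, 33.8% the CCAAT box, 17.8% the CRE core and 7.02% the STAT site, which Psmb8 had at 97 bases. These matches describe letters only and show neither binding nor its absence.

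**Figure D1:**
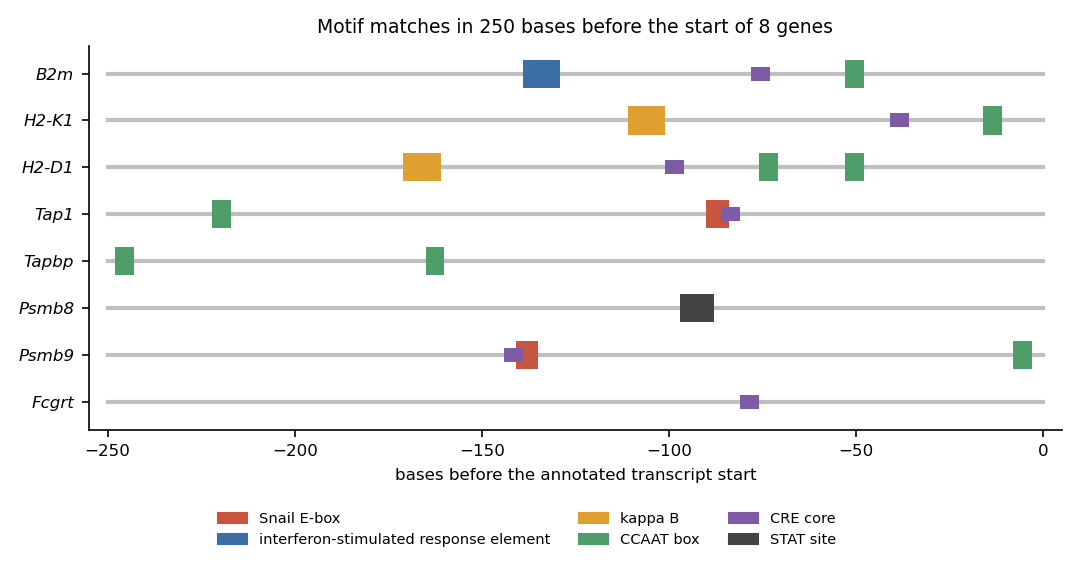
Motif matches (coloured boxes) along the 250 bases before the annotated transcript start of 8 genes; the x axis gives bases before the start. B2m, H2-K1, H2-D1 and Psmb9 have a CRE core followed by a CCAAT box, Tap1 has both in the reverse order, and Tapbp has only CCAAT boxes. Tap1 and Psmb9 hold the E-box, and Fcgrt has only a CRE core.

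On their brightest probes B2m and Fcgrt read lower on every knockout array than on any control array. The second bright B2m probe, described below, overlapped. The heavy chains and the peptide supply genes overlapped between the groups. B2m, the light chain, read 13.15, 13.10 and 13.16 on control arrays 1 to 3 and 12.75, 12.87 and 12.92 on knockout arrays 1 to 3. The lowest control value lay 0.17 above the highest knockout value. The group means were 13.14 ± 0.04 and 12.85 ± 0.09 (SD, n = 3 each), a difference of -0.29 ± 0.05 (SE), so that control exceeded knockout 1.22-fold if the base is 2.

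Fcgrt, the receptor heavy chain, read 10.40, 10.37 and 10.49 on control arrays and 10.14, 10.19 and 10.22 on knockout arrays. Here too the groups did not overlap, with a gap of 0.16 between them. The means were 10.42 ± 0.06 and 10.18 ± 0.04 (SD, n = 3 each), a difference of -0.24 ± 0.04 (SE), which is 1.18-fold higher in control. Because the groups did not overlap, every pairing of arrays gives a lower knockout value for Fcgrt. Among arrays of the same replicate number its differences were -0.25, -0.18 and -0.27. For B2m on its brightest probe, where the direction was fixed in the same way, they were -0.40, -0.22 and -0.24. The second bright B2m probe, described below, went both ways. Among the 6969 bright genes, 1.54% had a lower difference than B2m on its brightest probe and 3.00% a lower one than Fcgrt. For the other bright members this share ran from 15.9% (Psmb9) to 84.5% (H2-D1). As the genes were chosen with the contrast known, nothing is read from these places.

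None of the 10 genes passed limma's test over all genes, against a background of 0.131% of genes called (25 of 19057). Adjusted p was 0.23 for B2m and 0.21 for Fcgrt in that fit. Groups without overlap and with knockout below control were seen for 2 of the 10 genes and for 5.85% of all genes, and no member had knockout above control without overlap (6.2% of all genes). Because the genes were chosen with this contrast in view, nothing is read from these counts. With the mean of a gene's probes in place of the brightest, Fcgrt passed (adjusted p = 0.041, limma). In that setting 23 of 19057 genes were called, Fcgrt among them, and nothing is read from this call either. Over its 11 alternatives the adjusted p of Fcgrt ranged from 0.041 to 0.61 (limma). The bulk RNA cannot tell fewer cells that make a transcript from less of it per cell.

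**Figure D2:**
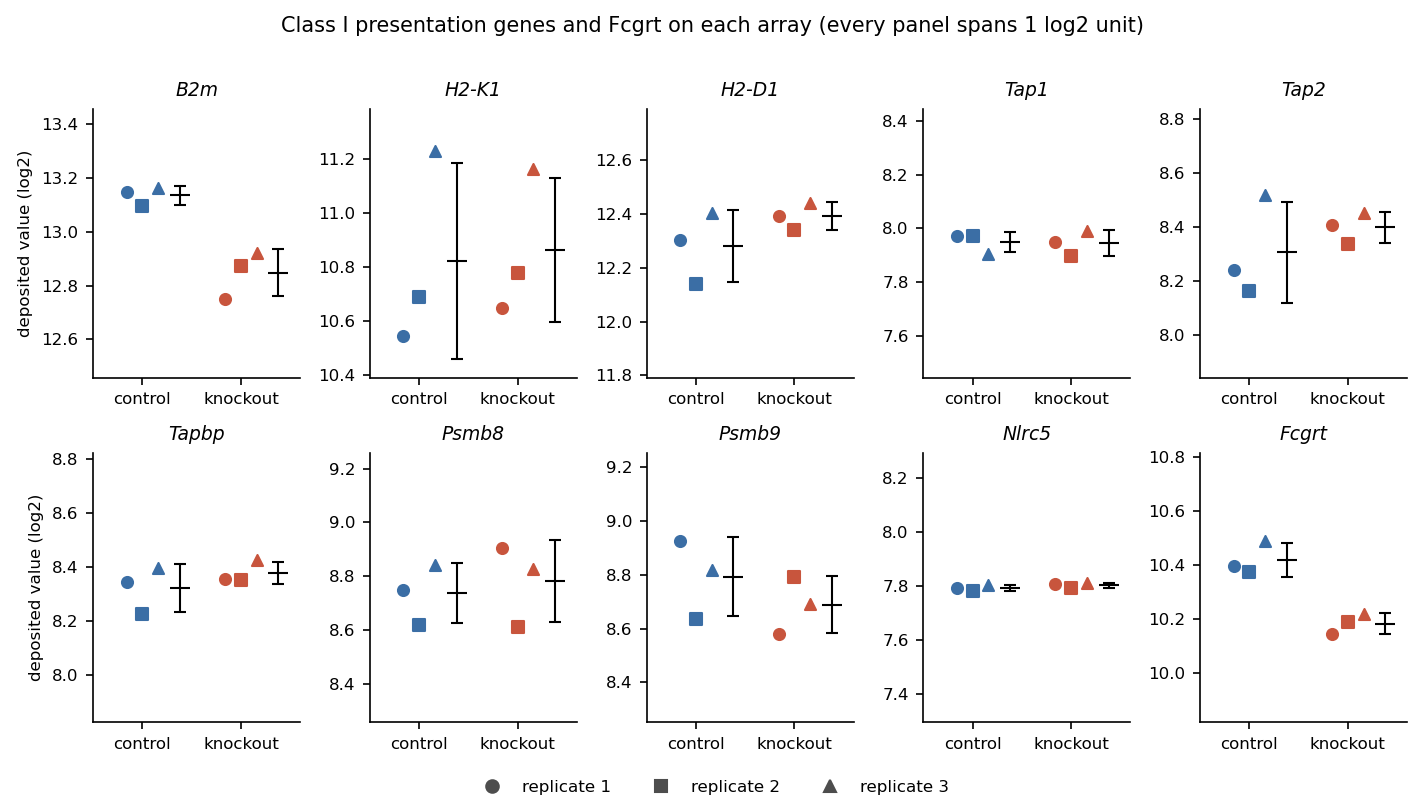
Deposited value (log2) of each gene on the 6 arrays, control in blue and knockout in red, with marker shapes for replicate numbers and a bar for the mean and SD (n = 3); every panel spans 1 log2 unit. B2m and Fcgrt are the panels in which the groups separate, while H2-K1 spreads by 0.69 among control arrays alone.

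The further probes of these genes differed in how far they repeated the pattern. The second Fcgrt probe, ILMN_2917497, read 9.61, 9.54 and 9.55 on control and 9.23, 9.28 and 9.28 on knockout arrays, again without overlap and with a difference of -0.30 ± 0.03 (SE of the fit over all probes). The second bright B2m probe, ILMN_1216746, read 12.96, 13.06 and 12.92 on control and 12.98, 12.72 and 12.62 on knockout arrays. On that probe knockout replicate 1 lay among the controls and above control replicate 1, although the same array was the lowest of all on the brightest probe. The B2m groups therefore overlapped there, and the difference was -0.20 ± 0.10 (SE). The third B2m probe, ILMN_2670561, read 7.79 over all arrays, below the median of the table, and its difference was -0.03. With the gene's 3 probes averaged, that dim probe included, the B2m difference was -0.17. Of all 20 probes 13 were bright, and 3 separated the groups, all with knockout below control (5.51% of probes with 1 gene did so).

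**Figure D3:**
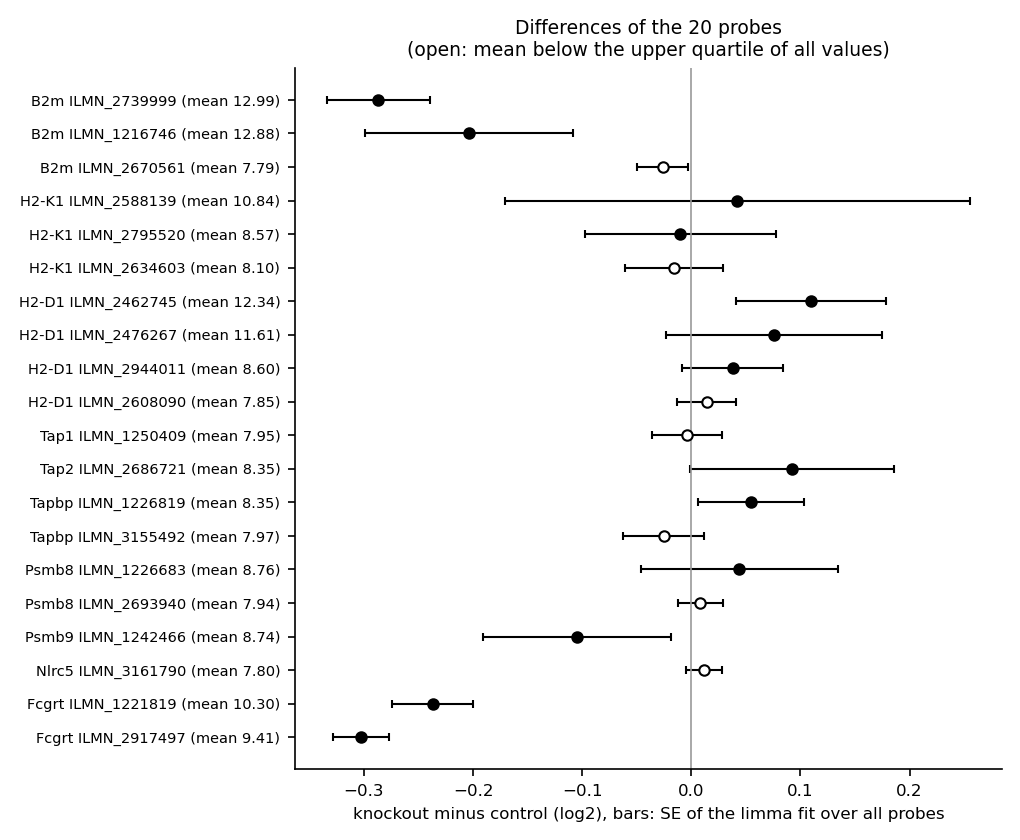
Knockout minus control (log2) for each of the 20 probes, with the SE of the limma fit over all probes as bars and filled points for bright probes. Both Fcgrt probes lie at -0.24 and -0.30, the bright B2m probes at -0.29 and -0.20, and the H2-D1 probes above 0 at 0.01 to 0.11.

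The heavy chains that pair with beta-2-microglobulin for peptide presentation had knockout means at or slightly above the control means on their brightest probes. H2-D1 read 12.30, 12.14 and 12.40 on control and 12.39, 12.34 and 12.44 on knockout arrays, with overlapping groups and a difference of 0.11 ± 0.07 (SE). All 4 of its probes had a higher knockout mean, by 0.11, 0.08, 0.04 and 0.01. H2-K1 read 10.54, 10.69 and 11.23 on control and 10.65, 10.78 and 11.16 on knockout arrays, a difference of 0.04 ± 0.21 (SE). In both groups the array numbered 3 was the high one, and the SD within a group, 0.36 in control and 0.27 in knockout, was many times the difference. Its other probes, one of them dim, had differences of -0.01 and -0.02. Heavy chain genes resemble each other closely, so a probe named for one may also read a relative.

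The transporter and loading genes were low on the scale. Tap1 read 7.91 to 7.97 in control and 7.90 to 7.99 in knockout samples, near the table's median, where a change might hardly show. Its difference was -0.0037 (SE 0.03). Tap2, its partner in the transporter, read 8.24, 8.16 and 8.52 on control and 8.41, 8.34 and 8.45 on knockout arrays, a difference of 0.09 ± 0.09 (SE), the control values spanning more than the knockout values. Tapbp, which bridges transporter and heavy chain, read 8.22 to 8.40 and 8.35 to 8.42, a difference of 0.05 ± 0.05 (SE), while its second, dim probe had -0.03.

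The interferon-induced proteasome subunits overlapped between groups as well. Psmb8 read 8.75, 8.62 and 8.84 on control and 8.91, 8.61 and 8.82 on knockout arrays, a difference of 0.04 ± 0.09 (SE). Psmb9, which shares its upstream stretch with Tap1, read 8.93, 8.64 and 8.82 on control and 8.58, 8.79 and 8.69 on knockout arrays, a difference of -0.10 ± 0.09 (SE). Its pairs of the same number went both ways, with differences of -0.35, 0.16 and -0.12. The activator Nlrc5 read 7.78 to 7.81 on all 6 arrays, where only 9.31% of probes were dimmer, so its level could not be followed here. In all, 4 of the 10 genes had a lower and 6 a higher knockout mean, with a median difference of 0.03, beside 50.7% lower and a median of -0.00057 over all genes.

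For H2-K1 and H2-D1, arrays of the same replicate number varied together. Among the 8 bright genes, the same replicate number gave the highest array of both groups for 6, namely B2m, H2-K1, H2-D1, Tap2, Tapbp and Fcgrt, in each case number 3. The same number gave the lowest array of both groups for 5 of the 8. For all bright genes of the table these shares were 47.7% and 46.0%. With the replicate number as a block, the SE of the H2-K1 difference went from 0.21 to 0.04 and that of H2-D1 from 0.07 to 0.04, while that of B2m went from 0.05 to 0.04 and that of Psmb9 from 0.09 to 0.10. No member passed in the blocked fit, in which 0.0472% of genes were called (9 of 19057).

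Related genes were counted in 7 lists of the surrounding pathway, with 91 measured genes. None passed limma's test over all genes, in which 0.131% of genes were called (25 of 19057), and nothing is read from this. An unadjusted limma p under 0.05 was seen for 4 (7.22% of all genes), and 42 had a lower and 49 a higher knockout mean. The median difference was 0.0015. The groups did not overlap for 4 genes with knockout below and 4 with knockout above control, against 5.85% and 6.2% of all genes.

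Of the other heavy chains and class I-like partners of beta-2-microglobulin, 22 were measured, 8 of them bright, 12 with a lower and 10 with a higher knockout mean and a median difference of -0.01. The brightest were H2-Q5 (difference 0.0033, SE 0.09), H2-T23, which encodes the nonclassical molecule Qa-1 (0.10 ± 0.05, SE), and H2-Q7 (0.01 ± 0.13, SE). H2-T23 read 10.94, 10.90 and 11.05 on control and 11.10, 11.00 and 11.10 on knockout arrays, so its groups overlapped. H2-Bl and Cd1d1, which presents lipids, were the members of this list without overlap, with knockout below control (5.85% of all genes). Chosen after their values were seen, they had differences of -0.15 ± 0.04 and -0.05 ± 0.02 (SE), both on dim probes.

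The peptide loading list had 8 measured genes, 4 lower and 4 higher. Its brightest members were Pdia3, the disulfide isomerase partner of tapasin (0.08 ± 0.10, SE), Ganab, a glucosidase of glycoprotein folding (0.07 ± 0.09), and the chaperone calreticulin, Calr (-0.01 ± 0.10). Of 7 proteasome partners, 5 had a lower mean, with a median difference of -0.03. The assembly factor Pomp differed by -0.19 ± 0.13 (SE), and the constitutive catalytic subunits Psmb6 and Psmb7 by -0.03 ± 0.06 and -0.01 ± 0.07. In neither list did any gene separate the groups.

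Regulators of the pathway numbered 19, of which 5 had a lower and 14 a higher knockout mean, with a median difference of 0.03. The brightest were Nfyc, a subunit of the factor that binds the CCAAT box (0.03 ± 0.02, SE), and the interferon regulatory factors Irf2 (0.03 ± 0.08) and Irf1 (0.03 ± 0.15). Of the 19, 5 separated the groups, 2 with knockout below and 3 with knockout above control, against 5.85% and 6.2% of all genes. They are named after their values were seen. Rela, the NF-kappa B subunit, read 10.24, 10.15 and 10.42 on control and 10.47, 10.44 and 10.62 on knockout arrays (0.24 ± 0.08, SE; adjusted p = 0.59, limma). The chains of the interferon gamma receptor went opposite ways, Ifngr1 by 0.17 ± 0.06 and Ifngr2 by -0.25 ± 0.09 (SE; adjusted p = 0.62 and 0.65, limma). The other 2, Nfya and Ifnar1, were dim and differed by 0.04 and -0.02.

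Class II genes, which present extracellular peptides, were dim except for H2-DMa, a peptide exchange factor (0.06 ± 0.04, SE). Of 12 measured, 5 had a lower and 7 a higher mean, the next brightest, Ctss and H2-Ab1, differing by -0.01 and -0.04. In the interferon response list only Irgm1, an immunity-related GTPase, was bright, at 12.62, 12.75 and 12.93 on control and 12.18, 12.72 and 12.64 on knockout arrays (-0.25 ± 0.16, SE). Its groups overlapped, and Isg15 and Oasl2, the next brightest of the 13, differed by 0.01 and 0.04.

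Among 10 other antibody receptors, Pigr, which carries IgA across the gut epithelium, was the brightest and read 11.92, 11.76 and 12.35 on control and 11.93, 12.29 and 12.15 on knockout arrays (0.12 ± 0.17, SE). Trim21, a cytosolic antibody receptor, differed by 0.02 and the dim Fcer1a by -0.01. The dim Fcgr1, named after its values were seen, was the member of this list that separated the groups, by 0.03. Knockout was above control without overlap for 6.2% of all genes.

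**Figure D4:**
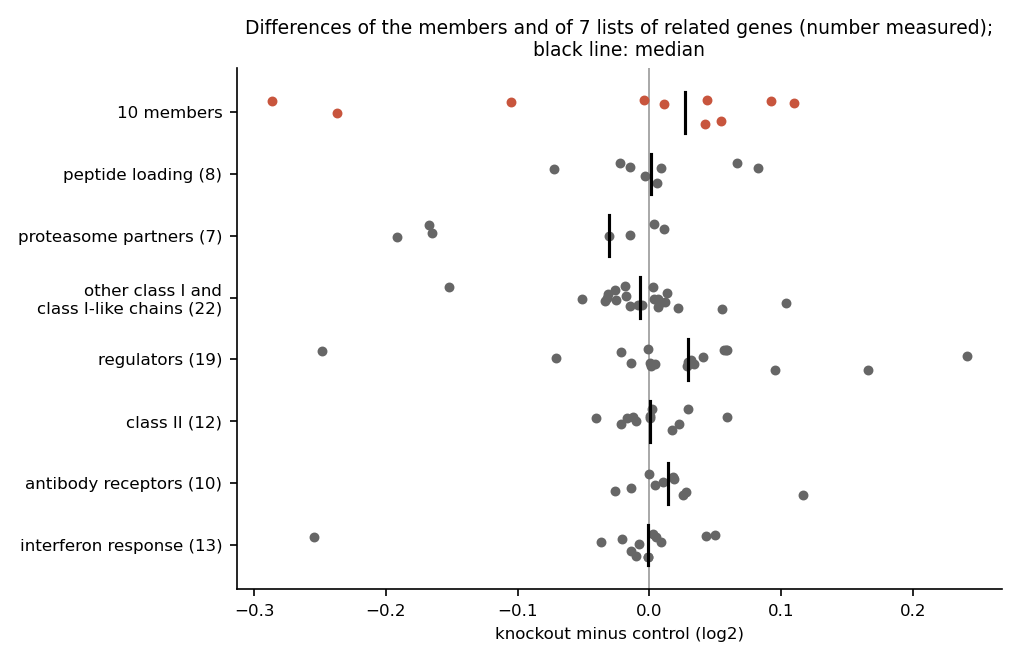
Knockout minus control (log2) for the 10 members (red) and for each measured gene of 7 related lists (grey), with a black line at each median. The list medians lie between -0.03 and 0.03, and B2m and Fcgrt lie at -0.29 and -0.24.

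Other genes had profiles over the 6 arrays close to those of B2m and Fcgrt, by the root mean square difference between profiles centred on each gene's mean, over 6968 other bright genes. Closest to B2m were Atf5, a transcription factor (0.04), Kcnk10, a potassium channel (0.04), Fcgrt itself (0.04) and Gsdmd, which encodes gasdermin D (0.05). Closest to Fcgrt were Pigu and Kcnk10 (0.03 each), and Fxyd3 and Chmp2a (0.04 each), with B2m in place 11. The measure includes the difference between the groups, so such genes share that difference by construction. B2m lies on chromosome 2, as Snai1 does in GRCm38.p6, with 459 measured genes between them, while Fcgrt lies on chromosome 7, Nlrc5 on chromosome 8 and the other 7 members on chromosome 17.

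Of the 14 epithelial markers, 2 separated the groups with knockout below and 1 with knockout above control, against 5.85% and 6.2% of all genes. None passed limma's test, as against 0.131% of all genes. These markers are named after their values were seen. Olfm4, of crypt base stem cells, differed by 0.45 ± 0.13, Chga, of enteroendocrine cells, by -0.17 ± 0.04 and Lyz1, of Paneth cells, by -0.10 ± 0.03 (SE; adjusted p = 0.48, 0.39 and 0.52, limma). Lgr5, another stem cell marker, differed by 0.42 ± 0.18 with overlapping groups (SE; adjusted p = 0.73, limma). Muc2 and Alpi also had overlapping groups and differed by 0.29 ± 0.29 and -0.24 ± 0.24 (SE). Over the 14 epithelial markers 7 were lower and 7 higher, and their mean level ran from 10.59 to 10.75 on control and from 10.53 to 10.85 on knockout arrays. The mean level of the leukocyte markers ran from 7.86 to 7.88 in both groups, and the dim Cd14 was the marker among them that separated the groups (-0.10 ± 0.04, SE). Among the 8 stromal and endothelial markers, the dim Pdgfrb separated the groups, by 0.04. The part of these markers in the values of B2m and Fcgrt was not tested.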

How the data were processed

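Biotin-labelled cRNA from 6 samples was hybridised to Illumina arrays, per the labels' protocols. The deposited table holds log values, taken as log2, that the authors had equalised between arrays before deposit: sorted values differ by at most 0.0019. The sources used here do not give the log base, the background correction or the software. The number of arrays limits the precision. The median SE of a difference was 0.067 among the 6969 bright genes. The platform annotation names 1 gene for 34885 probes, several for 18 and none for 10378.

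The groups were compared by limma (version 3.58.1, R version 4.3.3) with lmFit and untrended eBayes. A gene was called at a Benjamini-Hochberg adjusted p under 0.05 over 19057 genes, with no filter on dim genes. The fit was also run on simulated data with known changes. Those changes were larger than the differences of B2m and Fcgrt, so that run does not cover differences of their size. Deviations of same-numbered arrays from their group means correlated at r = 0.35, 0.33 and 0.46, so a fit with the number as a block was run as well. The labels do not say what a number shares. The genes named outside the 10 are, in each list, the 3 brightest and any called, and the 4 genes with profiles closest to B2m and to Fcgrt. Those rules cover the 7 related lists. Markers named from the 3 cell type lists, and other genes so marked, were chosen after their values were seen. Members and lists were chosen with earlier results of these data known.

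Alternatives were the replicate block, cyclic loess, only bright genes, the mean of a gene's probes, a variance trend and leaving out each array. List symbols without a probe of their own name were not analysed here.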

Additional observations from a re-analysis of the deposited data

How the results depend on the processing

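The count of genes called, 25, was 9 with the replicate block, 41 with only bright genes and 60 with a variance trend, and 4 to 23 with 1 array left out. It was 24 with cyclic loess and 23 with the mean of a gene's probes. No related gene of the 7 lists was called in any of these settings, and none of the 10 genes was, except Fcgrt with the mean of its probes. Differences of B2m and Fcgrt were below 0 in all 11 alternatives each, from -0.32 to -0.17 and from -0.27 to -0.20, and that of Psmb9 from -0.18 to -0.04. H2-D1, Tap2 and Tapbp were above 0 in all 11 and Nlrc5 in all 10 that held it. The replicate block, the restriction to bright genes and the variance trend leave a difference unchanged by construction. For a gene with 1 probe the mean of its probes does so too. Only cyclic loess, leaving out arrays and, for genes with several probes, their mean could move a difference. For B2m and Fcgrt, whose groups did not overlap on their brightest probes, leaving out an array could not change the sign. Most of their alternatives therefore had a fixed direction, and nothing is read from that count. H2-K1 ran from -0.11 to 0.25, being below 0 without control replicate 1, control replicate 2 or knockout replicate 3. Psmb8 was below 0 without control replicate 2 or knockout replicate 1, and Tap1 above 0 without control replicate 1, control replicate 2 or knockout replicate 2. Members with a lower knockout mean numbered 3 to 5 with 1 array left out. Their median difference ran from -0.01 to 0.05 there, below 0 without control replicate 2 or knockout replicate 3. The replicate block changed no call among the 10 genes or the lists. Dim probes limit what can be said of Tap1 and Nlrc5.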
